A study of Mus musculus with 2 samples.

Results

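The genes described here are the enzymes, transporters and regulators of glucose use: 40 mouse genes chosen by pathway, from glucose entry through glycolysis to lactate, pyruvate oxidation and the pentose phosphate branch, with 3 genes known to be induced by low oxygen. The rule names them by pathway and uses no measured value, although earlier results of these data were known when they were picked; 25950 genes were detected in all. They were measured in Cdx2+/-Cdx4-/- mutant embryos, which carry 1 inactive copy of Cdx2 and no working copy of Cdx4, set against wildtype embryos, both at 13 somites. For each genotype the posterior ends of 7 embryos, cut at a shared axial level set by the newest somite boundary, were combined into 1 pool of total RNA. The pools were compared on 2 dual-colour Agilent oligonucleotide arrays with the dyes exchanged: the mutant was labelled with Cy5 on replicate 1 and with Cy3 on replicate 2. The number of arrays limits the precision, and every error given below is the SD of 2 arrays of the same pair of pools, a technical error, so no p-value was computed.

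Glycolysis splits glucose into pyruvate, and cells can turn pyruvate into lactate and export it or burn it in mitochondria after pyruvate dehydrogenase has acted on it. In the elongating tail end of vertebrate embryos, glycolytic activity is known to be high in the unsegmented mesoderm and to decline as cells form somites, and it is tied there to FGF and WNT signalling. Cdx2 and Cdx4 encode homeodomain transcription factors that maintain growth of this posterior tissue.

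A gene was called higher or lower when its log2 ratio of mutant over wildtype reached 1.5-fold in the same direction on each array. Of the 40 genes, 38 had a probe, and all 38 were measured on both arrays. Gpi1, the isomerase that links the hexokinase and phosphofructokinase steps, and Ldha, a lactate dehydrogenase subunit, had no probe under the naming rule and were not analysed here. Of these, 1 gene, Slc2a1, was higher in the mutant pool, 0 were lower and 37 passed in neither direction, where 0.212% of all 25950 genes were higher and 0.231% lower. The median log2 ratio of the 38 genes was 0.04, with -0.00 on replicate 1 and 0.07 on replicate 2, and the median of all detected genes was -0.00. Their mean ratios ran between -0.39 and 0.93, and 35 of the 38 means lay within 1.3-fold, as did 97.8% of all detected genes. Signs differed between the arrays for 20 members (52.6%), against 52.2% of all genes. On both arrays 12 members lay above 0, where 23.4% of all genes did, and 6 lay below 0, where 24.5% did. The tissue was a bulk sample, so fewer cells of a type and less RNA per cell cannot be told apart in any of these ratios.

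**Figure D1:**
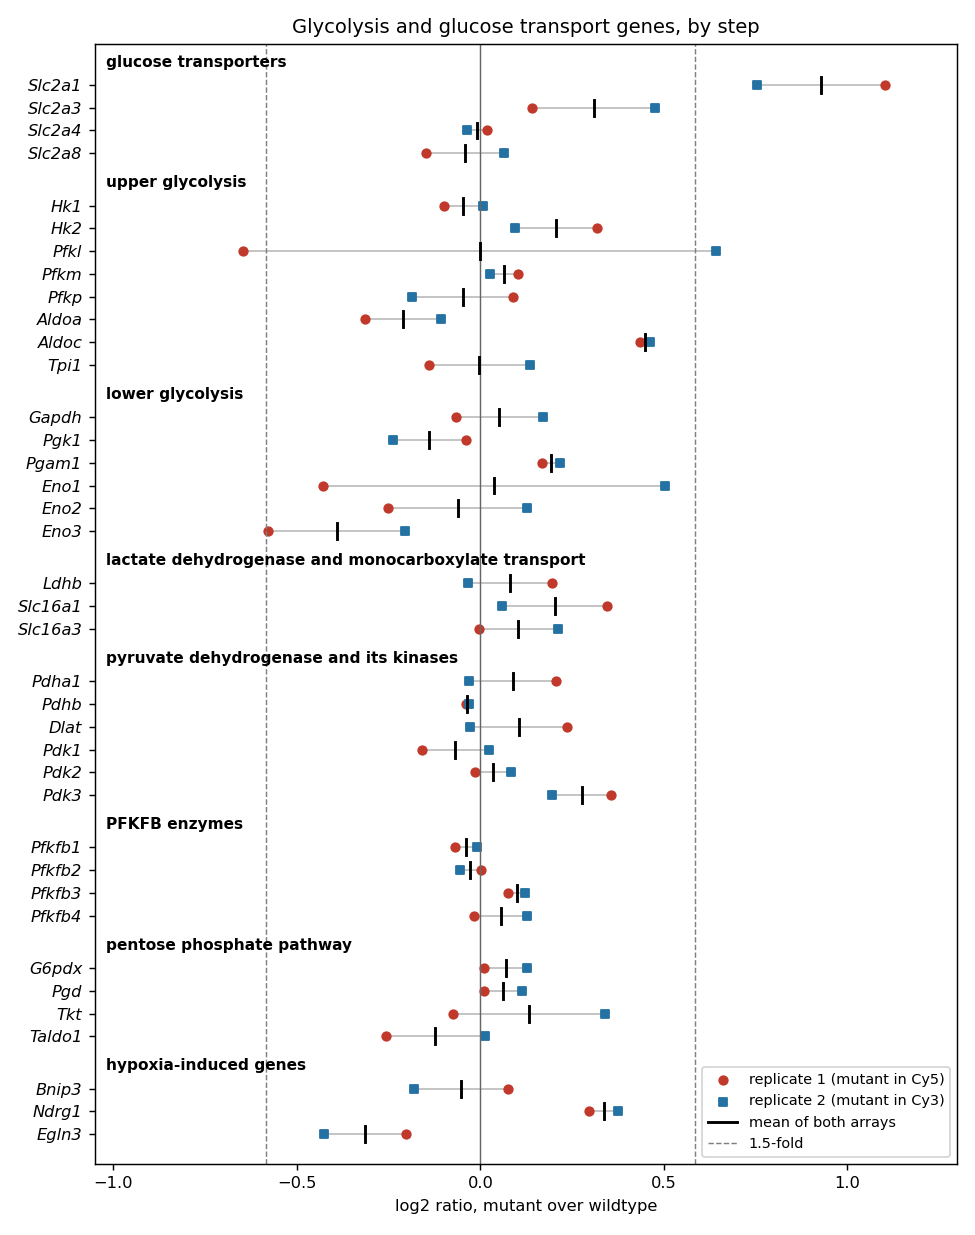
Log2 ratio of mutant over wildtype (x axis) for the 38 measured genes, grouped by step (y axis); circles are replicate 1, squares replicate 2, bars the mean of both arrays, and dashed lines mark 1.5-fold. Slc2a1 is the only gene with both points past a dashed line, and Pfkl has its points past opposite lines.

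The 2 arrays set the scale for what could be seen. On replicate 1 gene spots had median signals of 150 in Cy3 and 159 in Cy5, while negative control spots had 109 in Cy3 and 91.3 in Cy5. Replicate 2 had 146 in Cy3 and 155 in Cy5 at gene spots, while its negative controls had 113 in Cy3 and 92.2 in Cy5. Pooled over genes, the arrays' SD came to 0.24 for the members and 0.18 for all detected genes. Of all 115 genes called, 47.8% were higher in the mutant pool. Median centring in place of the intensity-dependent loess called fewer genes, 27 higher and 16 lower, and 62.8% of those calls were higher. Pearson's r between the arrays' ratios was 0.29 across the 38 members and 0.03 across the other 37 without Slc2a1, against 0.11 across all detected genes, given as a description since genes on 1 array share its pools and dyes.

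**Figure D2:**
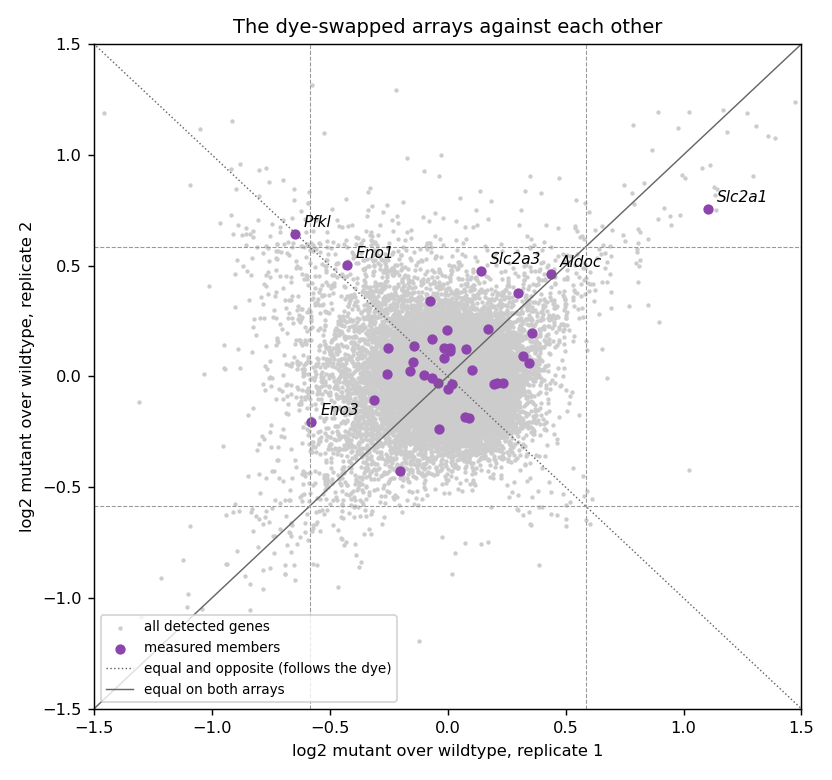
Log2 ratio of mutant over wildtype on replicate 1 (x axis) and replicate 2 (y axis) for all detected genes (grey) and the 38 measured members (purple); 17 genes lie beyond the axes, dashed lines mark 1.5-fold, and the dotted diagonal is where a ratio that follows the dye and not the genotype would fall. Slc2a1 stands apart at the upper right, Aldoc lies on the solid diagonal of equal ratios, and Pfkl and Eno1 lie near the dotted diagonal.

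Glucose entry was the step that held the called gene. Slc2a1 encodes GLUT1, the transporter that brings glucose into most embryonic cells. Its normalized intensity was 17986 and 15647 in the mutant pool on replicates 1 and 2, against 8371 and 9282 in the wildtype pool. Both mutant values were above both wildtype values. The gene was 1.90-fold higher in the mutant pool, with log2 ratios of 1.10 and 0.75 and a mean of 0.93 ± 0.25 (SD of 2 arrays). It ranked 34 from the top among the 25950 genes. A single probe stands for the gene, at chr4:117482868-117482927 in the files' coordinates, whose build is not named. With median centring in place of loess the ratios were 1.68 and -0.04, so the mean was 0.82 and the call ended.

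The 250 bases before the start of Slc2a1 are shown because it is the member that passed. Those of Bnip3, a gene induced by low oxygen that did not pass, and of Eno3 are shown beside it. Eno3 is an example that holds a match to each of the patterns searched, as do single promoters of Pfkfb2, Pfkfb3 and Pfkm. The sequences are from RefSeq's GRCm38.p6 table, 5′ to 3′ on the gene's own strand: chr4:119108495-119108744 on the plus strand for Slc2a1, chr7:138909507-138909756 on the minus strand for Bnip3 and chr11:70656926-70657175 on the plus strand for Eno3. Capitals mark matches on either strand to the core letters of a hypoxia response element, ACGTG or GCGTG, and to a CDX-like pattern, TTTATG or TTTATT. Neighbouring matches in Bnip3 overlap.
Slc2a1: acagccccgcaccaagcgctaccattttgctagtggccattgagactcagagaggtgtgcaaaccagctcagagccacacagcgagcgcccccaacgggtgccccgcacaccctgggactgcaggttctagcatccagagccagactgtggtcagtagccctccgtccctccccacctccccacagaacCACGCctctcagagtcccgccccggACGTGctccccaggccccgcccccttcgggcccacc
Bnip3: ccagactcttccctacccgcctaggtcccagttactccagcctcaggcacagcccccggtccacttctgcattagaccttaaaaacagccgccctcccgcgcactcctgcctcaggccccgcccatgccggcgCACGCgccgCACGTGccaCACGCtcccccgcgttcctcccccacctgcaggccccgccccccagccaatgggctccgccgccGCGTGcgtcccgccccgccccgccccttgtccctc
Eno3: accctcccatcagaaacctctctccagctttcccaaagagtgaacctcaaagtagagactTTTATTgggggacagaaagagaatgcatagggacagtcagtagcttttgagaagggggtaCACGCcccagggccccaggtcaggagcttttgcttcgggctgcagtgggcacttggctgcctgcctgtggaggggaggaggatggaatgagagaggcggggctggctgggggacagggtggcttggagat
Slc2a1 has 2 hypoxia core matches, whose first bases lie 61 and 36 bases before the start, and 0 CDX-like matches. Bnip3 has 5 hypoxia core matches and 0 CDX-like ones, and Eno3 has 1 of each. Promoters were found for 37 of the 40 members, and 33 of these (89.2%) held a hypoxia core within those 250 bases, as did 41.5% of 27025 genes in the table and 38.6% of its 32851 promoters. A CDX-like match was in 7 of the 37 (18.9%), in 28.6% of all genes and in 25.5% of all promoters. A gene counted if any of its promoters held a match, and the shares were not matched for base composition or number of promoters. Core matches were thus in the called Slc2a1 and also in members that were not called, and a match describes letters only.

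The other transporters were measured with smaller ratios. Slc2a3, which encodes the high-affinity transporter GLUT3, had normalized intensities of 7013 and 6864 in the mutant pool and 6357 and 4934 in the wildtype pool. The mutant values were above the wildtype values on both arrays, with ratios of 0.14 and 0.48 and a mean of 0.31 ± 0.24, short of the 1.5-fold rule. Slc2a4, the insulin-responsive transporter of muscle and fat, was at -0.01 ± 0.04, and Slc2a8, a transporter of intracellular membranes, at -0.04 ± 0.15. The median of the 4 transporters was 0.15, with 0.08 on replicate 1 and 0.27 on replicate 2.

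**Figure D3:**
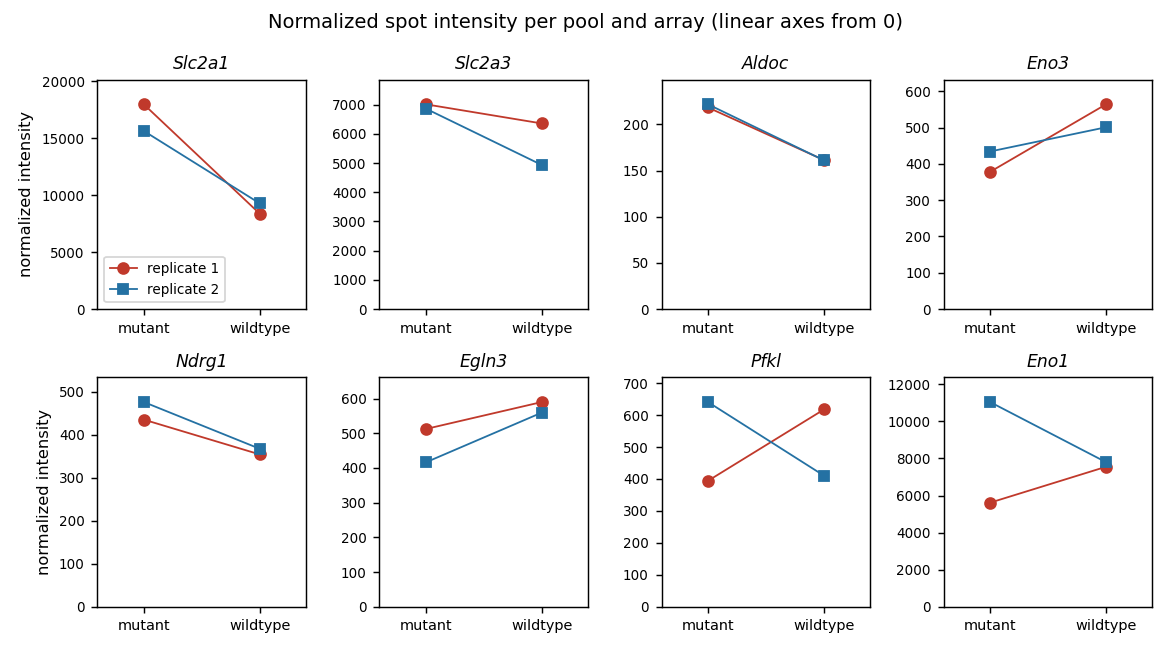
Normalized spot intensity (y axis, linear from 0, arbitrary units; scales differ between panels since probes cannot be compared) in the mutant and wildtype pools for 8 members; circles are replicate 1 and squares replicate 2, joined within an array. Both mutant points of Slc2a1, Slc2a3, Aldoc and Ndrg1 lie above both wildtype points, both of Eno3 and Egln3 lie below, and the lines of Pfkl and Eno1 run in opposite directions.

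None of the 8 measured genes of upper glycolysis was called, and their median was -0.00. Aldoc, an aldolase best known from brain, had the largest ratio of this step, and its arrays differed least. Its normalized intensity was 218 and 222 in the mutant pool, against 161 and 161 in the wildtype pool. The mutant pool was 1.36-fold higher, with ratios of 0.44 and 0.46 and a mean of 0.45 ± 0.02. A looser rule of 1.3-fold on each array, which 0.539% of all genes passed as higher, admitted Aldoc and Slc2a1. The scanner software's own ratio put Aldoc at 0.66 and 0.64, past 1.5-fold on both arrays, and the ratio without background subtraction was 0.36.

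Aldoa, the main aldolase of muscle and many other tissues, was represented by a dim probe. Its mutant intensity was 64.1 and 67.3, not well above background on either array, against 79.7 and 72.5 in the wildtype pool. Only a nominal bound can be given, 1.15-fold lower in the mutant pool. It takes the mutant level on each array as no less than that of the dimmest probe well above background. The bound leaves out the spread between arrays, so no minimum decrease is shown. The measured ratios were -0.31 and -0.11, with a mean of -0.21 ± 0.15, and the software's ratio gave -0.98. This probe lies on chromosome 4 in the files while the gene lies on chromosome 7, so the name rests on the files' symbol.

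Hexokinases trap glucose by phosphorylation. Hk2, singled out after its values were seen, had intensities of 1441 and 1402 in the mutant pool and 1156 and 1314 in the wildtype pool. The mutant was above the wildtype on each array, at 0.21 ± 0.16, without passing the rule. Hk1, the widely expressed hexokinase, was at -0.05 ± 0.08 by a dim probe, brighter than those of 28.5% of detected genes. Tpi1, which interconverts the triose phosphates, was at -0.00 ± 0.20 with opposite signs on the arrays.

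Phosphofructokinase commits sugar to glycolysis, and Pfkl encodes its liver-type subunit. Pfkl, also named after its values were seen, had intensities of 394 and 641 in the mutant pool and 617 and 410 in the wildtype pool. The difference followed the dye: the ratios were -0.65 and 0.64, both past 1.5-fold and in opposite directions, with a mean of -0.00 ± 0.91. Among all genes 52 (0.2%) passed 1.5-fold in opposite directions in this way. A dimmer Pfkl probe gave -0.14 and 0.01. Either array alone would have called Pfkl, lower from replicate 1 and higher from replicate 2. The muscle-type subunit Pfkm was at 0.06 ± 0.05 and the platelet-type subunit Pfkp at -0.05 ± 0.20.

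In lower glycolysis, the steps that yield ATP and NADH, 0 of 6 genes were called and the median was -0.01, with -0.16 on replicate 1 and 0.15 on replicate 2. Eno3, the muscle-type enolase, had the lowest measured ratio with the processing used here, leaving aside Aldoa, which has only a bound. Its intensity was 378 and 434 in the mutant pool, against 564 and 501 in the wildtype pool. Mutant values were below wildtype values on both arrays, by -0.58 and -0.21, with a mean of -0.39 ± 0.26, or 1.31-fold lower. The first of these ratios fell just short of the 1.5-fold line.

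Pgam1, a phosphoglycerate mutase, had intensities of 20078 and 18001 in the mutant pool and 17860 and 15501 in the wildtype pool. Its ratios of 0.17 and 0.22 differed little between the arrays, with a mean of 0.19 ± 0.03. The median over its 3 probes was 0.09. Pgk1, the kinase that makes ATP at this stage of the pathway, was at -0.14 ± 0.14 by the probe on the X chromosome, and another probe, placed on chromosome 3, gave -0.13. Eno2, the neuronal enolase, was at -0.06 ± 0.27 by a dim probe, brighter than those of only 7.39% of detected genes.

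Gapdh and Eno1, named after their values were seen, rest on probes that the files place on chromosomes other than the gene's own. Gapdh, the dehydrogenase often used as a reference transcript, had 7 probes, of which 1 was saturated on both arrays and left out. The brightest of the rest gave -0.07 and 0.17, with a mean of 0.05 ± 0.17, and the means of the other 5 ran between -0.05 and -0.02. Eno1, the widely expressed enolase, had intensities of 5615 and 11046 in the mutant pool and 7553 and 7801 in the wildtype pool. The ratios were -0.43 and 0.50, with a mean of 0.04 ± 0.66, so the arrays went in opposite directions. Its other 2 probes did the same, at -0.53 and 0.60, and at -0.78 and 0.43. Over all 14 measured enzymes of upper and lower glycolysis the median was -0.00, with -0.08 on replicate 1 and 0.11 on replicate 2, and 0 were called.

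**Figure D4:**
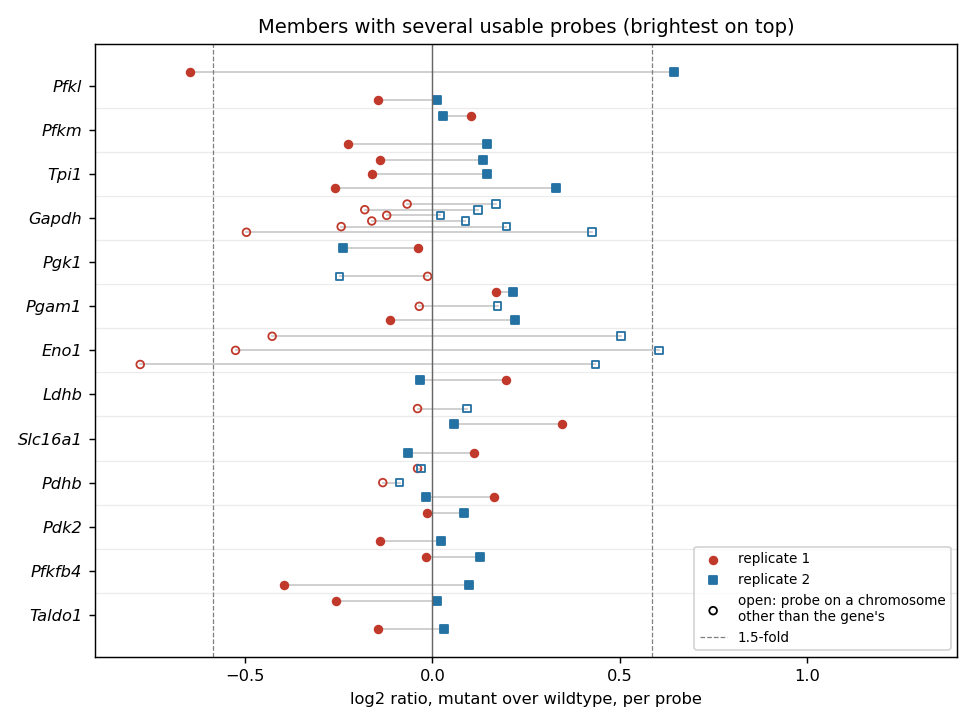
Log2 ratio of mutant over wildtype (x axis) of each usable probe of the 13 members with more than 1 such probe (y axis), brightest on top; circles are replicate 1, squares replicate 2, and open symbols mark probes that the files place on a chromosome other than the gene's. The usable probes of Eno1, Tpi1 and Gapdh all lie to the left on replicate 1 and to the right on replicate 2, and the dimmer Pfkl probe lacks the spread of the brighter one.

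Of the 13 members with several usable probes, 6 had means of 1 sign over all their probes. In all, 16 of the 61 probes, in 7 members, lay on another chromosome than the named gene, and for 4 members, Aldoa, Gapdh, Eno1 and Pdhb, the probe used was such a probe. With probes on the gene's own chromosome only, 35 members remained measured, Slc2a1 was again the called one, and their median was 0.06.

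The lactate step was measured without Ldha. Ldhb, the lactate dehydrogenase subunit of heart, was at 0.08 ± 0.16. Slc16a1, the monocarboxylate transporter MCT1, had intensities of 814 and 711 in the mutant pool and 641 and 683 in the wildtype pool. The mutant was above the wildtype on each array, with ratios of 0.35 and 0.06 and a mean of 0.20 ± 0.20. Slc16a3, the lactate exporter MCT4, had 813 and 757 in the mutant pool and 816 and 654 in the wildtype pool. Its ratios of -0.00 and 0.21 averaged 0.10 ± 0.15, so the pools were apart on 1 array only. The step's median was 0.10, with 0 of 3 called.

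Pyruvate dehydrogenase turns pyruvate into acetyl-CoA, and its kinases switch it off. Pdk3, a kinase of this complex, had intensities of 416 and 413 in the mutant pool and 325 and 360 in the wildtype pool. Both mutant values were above both wildtype values, at 0.36 and 0.20, with a mean of 0.28 ± 0.11, which did not pass the rule. Dlat, the acetyltransferase subunit, had 328 and 324 in the mutant pool and 278 and 330 in the wildtype pool, with a mean ratio of 0.10 ± 0.19. The other kinases Pdk1, a gene also induced by low oxygen, and Pdk2 were at -0.07 ± 0.13 and 0.03 ± 0.07. The catalytic subunit genes Pdha1 and Pdhb were at 0.09 ± 0.17 and -0.04 ± 0.01. The Pdhb probe used is placed on chromosome 1, where another probe of that name gave -0.11. A dimmer probe on the gene's own chromosome 14 gave 0.16 and -0.02, with a mean of 0.07, so the sign of Pdhb depends on the probe. Here 0 of 6 genes were called and the median was 0.06.

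The PFKFB enzymes set the level of the sugar bisphosphate that activates phosphofructokinase. Their 4 genes lay between -0.04 and 0.10, with a median of 0.01 and 0 called. Pfkfb3, the form with the strongest kinase activity, had 276 and 236 in the mutant pool and 262 and 217 in the wildtype pool, at 0.10 ± 0.03. Pfkfb4 had 346 and 330 in the mutant pool and 350 and 303 in the wildtype pool, at 0.06 ± 0.10. Pfkfb1 and Pfkfb2 were at -0.04 ± 0.04 and -0.03 ± 0.04.

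The pentose phosphate pathway makes NADPH and ribose from the same sugar phosphates. None of its 4 genes was called, and the median was 0.07. Tkt, transketolase, had 1782 and 2147 in the mutant pool and 1878 and 1698 in the wildtype pool, with ratios of -0.08 and 0.34 and a mean of 0.13 ± 0.29. Taldo1, transaldolase, had 11133 and 12431 in the mutant pool and 13305 and 12330 in the wildtype pool, with a mean of -0.12 ± 0.19. Neither kept its sign on both arrays. The oxidative branch enzymes G6pdx and Pgd were at 0.07 ± 0.08 and 0.06 ± 0.07.

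Among the 3 genes induced by low oxygen, 1 lay above 0 on both arrays, 1 below and 1 on either side. Ndrg1, a stress-induced gene, had intensities of 435 and 476 in the mutant pool, against 354 and 367 in the wildtype pool. Both mutant values were above both wildtype values, with ratios of 0.30 and 0.37 and a mean of 0.34 ± 0.05, which did not pass the rule. Egln3, a prolyl hydroxylase that marks HIF for breakdown and is itself a HIF target, ran the other way. Its intensity was 512 and 416 in the mutant pool and 590 and 560 in the wildtype pool, at -0.20 and -0.43, with a mean of -0.32 ± 0.16. Bnip3, a mitochondrial protein of mitophagy whose promoter is shown above, was at -0.05 ± 0.18.

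**Figure D5:**
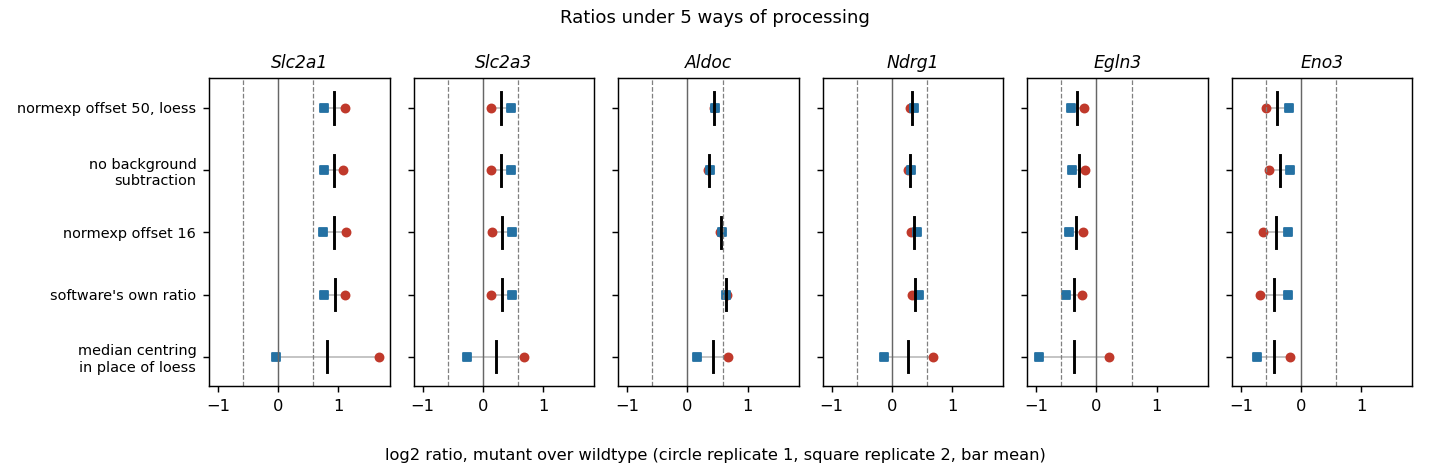
Log2 ratio of mutant over wildtype (x axes) of 6 members under 5 ways of processing (y axis); circles are replicate 1, squares replicate 2, bars the mean, and dashed lines 1.5-fold. Slc2a1 has both points past 1.5-fold in all but median centring, where its replicate 2 lies at -0.04, and Aldoc has both past it with the software's own ratio only.

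Further genes of the pathway were read from 6 lists, in which 0 genes were called. Among 24 measured other transporters and isoenzymes the median was -0.01. Emb, a chaperone of monocarboxylate transporters, had 776 and 670 in the mutant pool and 506 and 501 in the wildtype pool. Its mean was 0.52 ± 0.14, and it passed 1.5-fold on replicate 1 only, with ratios of 0.62 and 0.42. Slc2a10, a transporter of the same family as Slc2a1, was at -0.23 ± 0.31. Pkm, the pyruvate kinase at the end of glycolysis, named after its value was seen because the set lacks that enzyme, was at -0.09 ± 0.29. Its probe was dim, with 115 and 148 in the mutant pool and 141 and 137 in the wildtype pool, and its signs differed between the arrays.

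For pyruvate entry, the other dehydrogenase parts and gluconeogenesis the median of 16 genes was -0.03, with Mpc1, a mitochondrial pyruvate carrier subunit, at -0.16 ± 0.04 and Dld, the complex's dihydrolipoamide dehydrogenase, at -0.15 ± 0.02. The 12 glycogen and hexosamine genes had a median of 0.01. In that list Pgm1, the phosphoglucomutase that links glycogen to glycolysis, had 2152 and 2131 in the mutant pool and 2693 and 2938 in the wildtype pool, at -0.39 ± 0.10, and Pygl, a glycogen phosphorylase, was at 0.25 ± 0.02. The 16 citric acid cycle genes had a median of -0.01, with Suclg2 and Idh3b, both cycle enzymes, at 0.18 ± 0.08 and -0.13 ± 0.05.

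Among 23 genes of the HIF pathway and of the response to low oxygen the median was 0.01. Bnip3l, a mitophagy receptor, and Ddit4, an inhibitor of mTOR signalling, were largest, at 0.25 ± 0.00 and 0.24 ± 0.00. Vegfa, the vascular growth factor and a HIF target, was at -0.21 ± 0.05, and Hif1a, the oxygen-regulated subunit itself, at 0.04 ± 0.10; both were named after their values were seen. Among 15 MYC family and insulin signalling genes the median was 0.04. Igf1, an insulin-like growth factor, had 122 and 131 in the mutant pool and 169 and 192 in the wildtype pool, at -0.51 ± 0.06, and Mycl, a MYC family factor, was at 0.44 ± 0.38.

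The labelled tissue was set against markers of the cells it could hold. These lists were picked with earlier results of these data known, so they give no independent measure of the tissue's make-up. Over all genes 0.212% were called higher and 0.231% lower. Olig2, Neurog2 and Sox3 of the neural tube list and Pax1 and Uncx of the somite list had no probe both detected and measured on both arrays. Of 8 measured presomitic mesoderm and somite markers 5 were higher, Meox1, Tcf15, Ripply2, Pcdh8 and Foxc2. Of the rest 1, Msgn1, lay below 0 on both arrays, and 2, Tbx6 and Pax3, had mixed signs. The 8 markers summed to 7163 and 6703 in the mutant pool against 4770 and 4437 in the wildtype pool. All 10 endothelial markers lay below 0 on both arrays, with Cldn5 and Sox18 called lower, and summed to 3271 and 3024 in the mutant pool against 4771 and 4598 in the wildtype pool. The 7 measured surface ectoderm markers all lay above 0 on both arrays with 0 called, summing to 22236 and 22401 in the mutant pool against 18014 and 18655 in the wildtype pool. Of 10 gut endoderm markers 3 were higher, Trh, Nepn and Spink1, with sums of 13229 and 15910 in the mutant pool against 15012 and 15707 in the wildtype pool. Of the 10 gut endoderm markers, 5 lay above 0 on both arrays, 1, Krt8, lay below 0 on both, and 4 had mixed signs. Krt8 makes up most of these sums, and the other 9 markers summed to 3608 and 3544 in the mutant pool against 2662 and 2442 in the wildtype pool. Of 7 measured neural tube markers 1, Sox2, was higher, with sums of 3538 and 3975 in the mutant pool against 3220 and 3610 in the wildtype pool. Among these 7, 5 lay above 0 and 2, Pax6 and Nkx6-1, below 0 on both arrays, with a median ratio of 0.04. Of the 9 measured primitive blood markers 0 were called, 0 lay above 0 and 5 below 0 on both arrays, and their median ratio was -0.10. Their sums of 22881 and 23564 in the mutant pool against 22715 and 24318 in the wildtype pool are mostly Hba-x, and the other 8 summed to 5055 and 4795 in the mutant pool against 5813 and 5213 in the wildtype pool. The signal of Krt18 likewise makes up most of the surface ectoderm sums; without it they were 2517 and 2434 in the mutant pool against 2022 and 1939 in the wildtype pool. These sums without the brightest gene were added after the values were seen. The pool in which Slc2a1 was higher thus also had higher sums, on both arrays, of somite, surface ectoderm and neural tube markers. Its endothelial sums were lower on both arrays. The full sums of gut endoderm and of blood markers went in opposite directions on the arrays. Only without Krt8 were the gut endoderm sums higher, and only without Hba-x the blood sums lower, on both arrays. The part of these cell types in the Slc2a1 ratio was not tested.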

How the data were processed

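The deposited files are scanner output with 1 spot per line, 43430 spots per array. The deposited intensity values are mean spot brightness and local background median in Cy3 and Cy5, not normalized, per the file headers. Also deposited is a log10 ratio of Cy5 over Cy3, taken after the scanner software's background and dye correction, per the file headers. Agilent Feature Extraction is given as version 9.5.3 by the submitters' processing notes and as 7.5.1 by the file headers.

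From the mean signals, background was corrected with normexp (limma 3.58.1, R 4.3.3, offset 50) and each array normalized by loess, in which control spots had no weight. The labelled dyes gave each ratio its direction, mutant over wildtype. Non-uniform spots (224 and 106 on the arrays) and saturated spots (117 and 122) were left out after normalization. The loess step, with the 1.5-fold rule, was tested on simulated dye-swapped arrays with a smooth dye bias that both arrays shared. The simulation held no dye effects of single probes, such as a difference that follows the dye at Pfkl, so it cannot speak to those. A gene's brightest detected probe stood for it. A probe was detected where the software's flag put 1 or both genotypes well above background on both arrays. Intensities printed per pool come from loess followed by Aquantile normalization between arrays. Names came from accessions (19435 probes), symbols (3620) or synonyms on the same chromosome (2944) through RefSeq's GRCm38.p6 table, 14470 probes kept the files' own name, and 544 that matched several genes were named only where the files' name was among them.

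The members, lists, rule and alternatives were chosen with earlier results of these data known. Named in full were members past 1.5-fold and the 2 largest mean ratios per step, and in other lists the called genes or otherwise the 2 largest. The labels describe 1 pool per genotype and do not say whether the same extracts were labelled again. Both arrays were counted as 1 comparison with no test. The restriction to probes on the gene's own chromosome was added after seeing the data.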

Additional observations from a re-analysis of the deposited data

How the results depend on the processing

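Slc2a1 was the called member with no background subtraction, an offset of 16, Aquantile scaling, saturated spots kept, no detection filter, the median over probes, probes on the gene's own chromosome, and a rule on the mean of both arrays. Its mean ratio over the background, normalization and filter settings ran between 0.82 and 0.93. Median centring and a 2-fold rule left 0 members higher, and the software's ratio and a 1.3-fold rule gave 2, Aldoc and Slc2a1. None of these settings called a member lower. From a single array, 1 to 2 members were higher and 0 to 1 lower, the added one being Pfkl. Over all genes, where 55 were higher and 60 lower, median centring gave 27 and 16, the software's ratio 167 and 189, a 1.3-fold rule 140 and 195, a 2-fold rule 20 and 7, and single arrays 93 to 213 higher and 125 to 336 lower. Lower genes numbered 38 without background subtraction, 91 at offset 16 and 95 by the arrays' mean. Higher genes made up 74.1% of calls at 2-fold, and 63.0% and 21.7% from replicate 2 and replicate 1 alone. The members' median was -0.0102 as a median over probes, which put the PFKFB genes at -0.0327, and upper glycolysis ran between -0.00518 and 0.0602 on single arrays. The causes were not tested. No paired analysis was possible because each genotype was 1 pool and the swapped arrays share it. With median centring 10 of 38 members changed sign. Of the 7 Gapdh probes 1 was saturated and gave no ratio, and background leaves only a nominal bound for Aldoa. The sexes of the pooled embryos are not given in the sources used here, and the spread between embryos cannot be estimated.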

Other observations

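Probes outside the naming rule whose names resemble those of members were also on the arrays and were chosen after their values were seen. For probes that the files name Gpi1s, placed on chromosome 8, the log2 ratios of mutant over wildtype were -0.15 and -0.20 for the brighter and -0.34 and 0.12 for the dimmer. Whether these probes measure Gpi1 itself was not tested. A probe named Aldoa-ps1, an aldolase pseudogene on chromosome 12, had 0.09 and -0.17. None of them passed 1.5-fold on either array.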
